A study of Mus musculus with 4 samples.

Results

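This account covers 32 mouse olfactory receptor genes whose symbols run from Olfr161 to Olfr206, measured in the nasal mucosa of 4 groups of mice. They are defined by their numbers alone, as genes called Olfr followed by a number from 161 to 206 that have a probe set of their own. In all, 19938 genes were measured on the arrays. The set was chosen with earlier results of these data known. The groups were wild type given PBS, wild type given flagellin, Duox2-/- given PBS and Duox2-/- given flagellin, all of strain C56BL/6 as the labels spell it and all 8 weeks old. Flagellin, the protein of bacterial flagella that a Toll-like receptor of epithelial cells recognises, was given into the nose as a solution of 5 ug/ml, with 25 ul per nostril, and the design text gives a time of 4 h. Each group had 1 array, made from total RNA of the mucosa lifted off the septum and turbinates. The labels state neither how the Duox2 allele was made nor how many mice went into each array.

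Olfactory receptors are G protein-coupled receptors that sit on the cilia of olfactory sensory neurons and bind odorants. A mature neuron expresses a single receptor gene from a single allele, so any 1 receptor is carried by a small fraction of the neurons and gives a dim signal in whole mucosa. Receptor genes lie in clusters of neighbours that arose by duplication, and neighbours can be alike enough in sequence to share array probes. Transcription of a chosen receptor depends on LIM homeodomain and Ebf factors that bind near the gene. In whole tissue, fewer cells of a type and less RNA per cell cannot be told apart.

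The values are log2 signals after RMA, a procedure that corrects background, gives the arrays a common probe distribution and summarises each probe set. The median over all probe sets lay between 6.48 and 6.56 on the 4 arrays. The interquartile range was wider on the wild-type arrays, at 2.79 with PBS and 2.73 with flagellin, than on the arrays labelled Duox2-/-, at 2.54 and 2.43. Duox2, the targeted gene, which encodes an epithelial NADPH oxidase, was in wild type at 4.95 with PBS and 5.12 with flagellin, and on the arrays labelled Duox2-/- at 5.23 and 5.504. It was dim on every array and not lower where the label says knockout. The labels do not say which exons the knockout allele lacks, nor is it known here whether the probe set covers them. The genotype is therefore named below as a label. The tissue held olfactory epithelium: Omp, the marker of mature olfactory neurons, was between 11.85 and 12.16 on the 4 arrays.

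Of the 46 numbers in the range, 32 had a probe set of their own and 3 (Olfr169, Olfr194 and Olfr205) appeared only in probe sets shared with other receptors. The other 11 were not listed; RefSeq names 7 of those as pseudogenes and holds no gene under the remaining 4 numbers. All 32 members matched a RefSeq gene of the same symbol on chromosome 16, and 2 of them, Olfr192 and Olfr197, are classed there as transcribed pseudogenes. In the gene order of the assembly GRCm38.p6 the members form 3 groups. Olfr161 stands alone, 7 members run from Olfr164 to Olfr171, and 24 run from Olfr172 to Olfr206. Between the groups lie 170 and then 286 other protein-coding genes.

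The members were dim. Of the 32, 6 reached 6.52, the median of all values, on at least 1 array, and 2 reached it in their 4-array mean. The 6 were Olfr165, Olfr166, Olfr167, Olfr168, Olfr170 and Olfr204. The median value of all 32 members was 4.24 on the wild-type PBS array and 4.98 on the wild-type flagellin array. It was 5.25 on the PBS array labelled Duox2-/- and 5.41 on the flagellin array with that label. No detection call came with the values, so how far these signals stood above background was not tested. Log2 values of different probe sets depend on their probes, so the members' levels are not ranked here against each other as amounts of RNA.

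**Figure D1:**
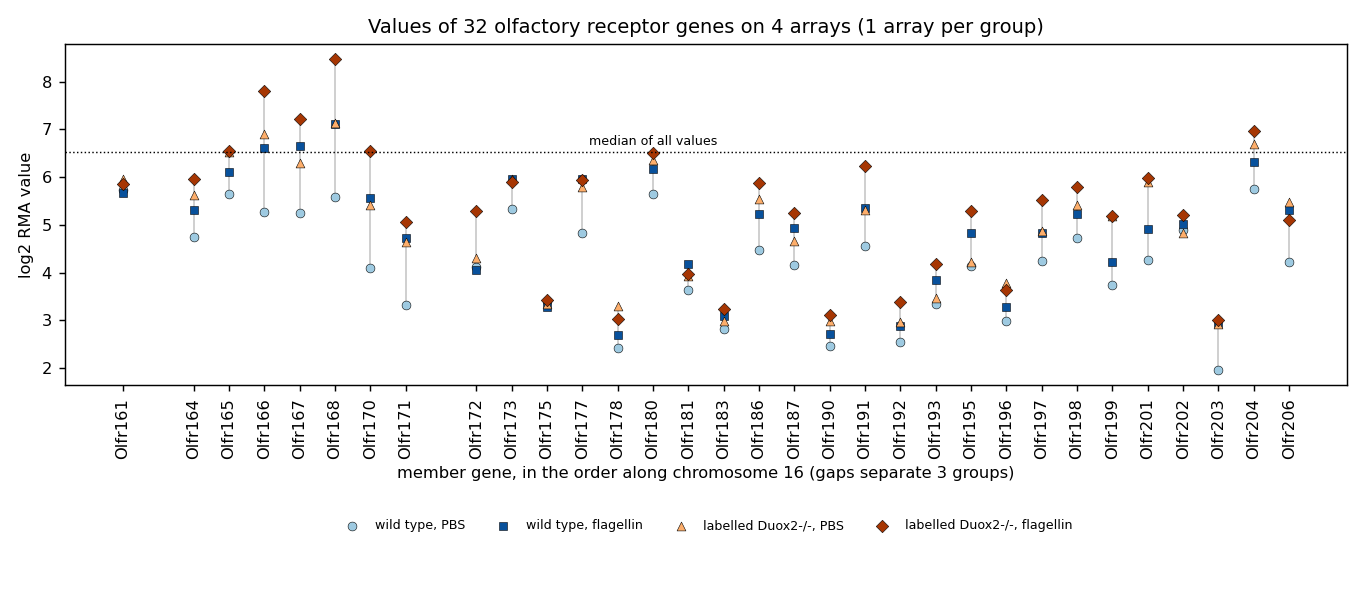
Log2 RMA values (vertical axis) of the 32 member genes in their order along chromosome 16 (horizontal axis), with 1 point per array and a grey line from the lowest to the highest array. The wild-type PBS array was the lowest of the 4 for 28 members, and Olfr166, Olfr167, Olfr168 and Olfr170 spanned the widest ranges.

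The group from Olfr164 to Olfr171 held the members that differed most between arrays. Olfr168 was at 5.58 on the wild-type PBS array, 7.12 on the wild-type flagellin array, 7.13 on the PBS array labelled Duox2-/- and 8.46 on its flagellin array. In the same order of arrays Olfr166 was at 5.26, 6.60, 6.91 and 7.79. Olfr167 was at 5.24, 6.66, 6.29 and 7.21. For all 3 genes the wild-type PBS array was the lowest and the flagellin array labelled Duox2-/- the highest. Olfr170 gave 4.09, 5.57, 5.42 and 6.54, and its neighbour Olfr171 gave 3.33, 4.73, 4.65 and 5.05. The first genes of the group showed smaller ranges of the same order: Olfr164 was at 4.74, 5.31, 5.63 and 5.95, and Olfr165 at 5.65, 6.11, 6.52 and 6.54.

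Olfr169 lies between Olfr168 and Olfr170 and was seen only through a probe set that also covers Olfr170 and Olfr171. That shared probe set was at 5.15, 6.91, 6.70 and 8.10 in the same order of arrays, so its lowest and highest arrays were those of its neighbours. Its listed accessions include those of the separate probe sets of Olfr170 and Olfr171. Signal can therefore be shared among these 3 genes and they do not count as independent measurements. Olfr203, Olfr204 and Olfr206 also appear in shared probe sets beside their own. How alike the transcripts of the members are was not tested, so other members may not be independent either.

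The nearest measured protein-coding genes that are not olfactory receptors were not higher after flagellin by sizes like those of Olfr166 to Olfr170. After Olfr171 come Lamp3, whose flagellin minus PBS difference was -0.24 (wild type) and 0.04 (labelled Duox2-/-), and B3gnt5, at 0.05 and -0.55, the latter larger in size than the differences of Olfr164, Olfr165 and Olfr171 there. With the label under PBS, B3gnt5 was higher by 0.68. Before Olfr164 the nearest measured ones were Hira, at -0.01 and 0.13, and Mrpl40, at -0.03 and -0.06. Beside the group from Olfr172 to Olfr206, the flagellin differences were 0.15 and -0.13 for Cldnd1, 0.26 and 0.23 for Gpr15, 0.64 and -0.14 for Gabrr3, and 0.07 and -0.44 for Riox2. With the label under PBS, Gabrr3 was higher by 0.79 and Gpr15 by 0.47, within the range of the members there.

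In the group from Olfr172 to Olfr206 the patterns were more mixed. Olfr191 was at 4.55, 5.36, 5.31 and 6.23 and Olfr195 at 4.14, 4.83, 4.23 and 5.30, again in the order wild-type PBS, wild-type flagellin, PBS labelled Duox2-/- and flagellin labelled Duox2-/-. For Olfr195 the 2 flagellin arrays were the highest and the 2 PBS arrays lay close together. Olfr201 was at 4.25, 4.91, 5.89 and 5.98 and Olfr199 at 3.74, 4.23, 5.19 and 5.19, so that both arrays labelled Duox2-/- lay above both wild-type arrays. Olfr204, the brightest of this group by its 4-array mean, was at 5.76, 6.31, 6.69 and 6.96.

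Some members differed little between the arrays. Olfr175 stayed between 3.29 and 3.42, the smallest range of the 32 members at 0.14. Olfr161, which stands alone on the chromosome, was at 5.73, 5.67, 5.96 and 5.85, and Olfr202 at 4.88, 5.02, 4.82 and 5.20. Other members were dim but differed more: Olfr178 gave 2.41, 2.68, 3.29 and 3.03, Olfr190 gave 2.45, 2.70, 2.99 and 3.11, and Olfr196 gave 2.99, 3.27, 3.77 and 3.63. Olfr203 had the lowest 4-array mean, 2.71, and was at 1.97 on the wild-type PBS array and between 2.92 and 3.01 on the others.

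RefSeq windows of the 250 bases before an annotated start were matched to 23 of the 32 members by gene ID. In 13 of these the gene model opens with ATG, so that the annotated start is that of the coding part and the window need not be a promoter; the other 10 were searched. All 10 belong to the group from Olfr172 to Olfr206. TAATTA, the core of LIM homeodomain sites, was found on either strand in 1 of the 10 windows, that of Olfr172, against 4.84% of all 32851 windows in the table and 17.8% of 259 receptor windows that do not open with ATG. The looser form TAATNA, which includes TAATTA, was found in 4 of 10, against 24.3% of all windows and 66.8% of the receptor windows. TATAAA was found in 2 of 10, against 12.4% and 31.7%. CCCNNGGG, a core of Ebf sites, was found in 0 of 10, against 11.8% and 7.34%; this says only that these letters are not in these windows.

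The windows of 4 members are given here, 5′ to 3′ on the strand of the gene, with TAATNA and TATAAA matches on either strand in capitals and coordinates of GRCm38.p6. Olfr206 and Olfr172 are the members whose flagellin differences in the 2 genotypes lay farthest apart in each direction, Olfr173 is the neighbour of Olfr172, and Olfr175 is the member with the smallest range.
Olfr172, chr16:58761241-58761490, minus strand: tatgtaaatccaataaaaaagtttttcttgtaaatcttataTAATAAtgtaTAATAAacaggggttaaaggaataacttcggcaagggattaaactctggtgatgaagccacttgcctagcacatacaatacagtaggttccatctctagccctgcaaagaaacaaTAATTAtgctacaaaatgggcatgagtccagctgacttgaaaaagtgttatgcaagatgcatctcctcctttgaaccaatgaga
Olfr173, chr16:58797943-58798192, minus strand: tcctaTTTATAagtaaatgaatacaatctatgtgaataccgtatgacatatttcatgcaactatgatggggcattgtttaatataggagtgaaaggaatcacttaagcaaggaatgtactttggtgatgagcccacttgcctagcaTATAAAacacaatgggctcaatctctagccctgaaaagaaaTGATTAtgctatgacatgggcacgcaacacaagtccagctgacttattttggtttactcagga
Olfr175, chr16:58826762-58827011, minus strand: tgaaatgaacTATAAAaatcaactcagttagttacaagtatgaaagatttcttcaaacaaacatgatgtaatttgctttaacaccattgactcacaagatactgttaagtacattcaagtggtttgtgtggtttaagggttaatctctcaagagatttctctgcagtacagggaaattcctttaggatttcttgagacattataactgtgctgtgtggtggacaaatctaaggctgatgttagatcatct
Olfr206, chr16:59345727-59345976, minus strand: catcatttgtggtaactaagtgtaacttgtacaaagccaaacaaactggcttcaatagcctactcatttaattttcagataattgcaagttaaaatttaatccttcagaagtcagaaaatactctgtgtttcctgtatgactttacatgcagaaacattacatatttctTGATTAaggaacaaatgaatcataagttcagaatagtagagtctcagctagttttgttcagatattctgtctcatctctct
The windows of Olfr172 and Olfr173 were 57.9% identical in a global alignment, the highest of 45 pairs, whose median was 47.4%. Their values differed: Olfr172 was at 4.11, 4.05, 4.31 and 5.30, with the flagellin array labelled Duox2-/- apart from the others, whereas Olfr173 was at 5.34, 5.96, 5.96 and 5.90, with the wild-type PBS array apart. The window of Olfr172 holds TAATTA and further TAATNA matches, and that of Olfr173 holds a TAATNA match on the other strand and TATAAA on both strands. The window of Olfr206 holds a single TAATNA match and that of Olfr175 a single TATAAA match. A match describes letters and is no measured binding site.

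Comparing flagellin with PBS in wild type asks which receptor genes differ when the mucosa meets the bacterial protein. Most members were higher on the flagellin array. The median log2 difference was 0.56 and 29 of 32 members were above 0. Above 0 were also 52.1% of all genes, 69.6% of the other olfactory receptors and 56.2% of non-receptor genes of like level. Non-receptor here means no olfactory, vomeronasal or trace amine-associated receptor, and other kinds of receptor were kept. At least 2-fold higher were 7 members, against 0.838% of all genes: Olfr168 by 1.53, Olfr170 by 1.48, Olfr167 by 1.41, Olfr171 by 1.41, Olfr166 by 1.34, Olfr177 by 1.12 and Olfr206 by 1.07. No member was at least 2-fold lower, where 0.0552% of all genes were. The members at the low end were Olfr175 at -0.12, Olfr161 at -0.06 and Olfr172 at -0.06. By position, 5 of the 7 members from Olfr164 to Olfr171 were past 2-fold, with a median of 1.41, and 2 of the 24 from Olfr172 to Olfr206, with a median of 0.54. With 1 array a group this comparison has no replicate check and no p-value.

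The same comparison in the arrays labelled Duox2-/- gave smaller differences. The median was 0.29 and 27 of 32 members were above 0. So were 48.7% of all genes, 72.9% of the other olfactory receptors and 70.6% of non-receptor genes of like level. Olfr168 was higher by 1.33, Olfr170 by 1.11 and Olfr195 by 1.07, and these 3 were the members past 2-fold, against 0.221% of all genes. Below that size came Olfr172 at 0.98, Olfr167 and Olfr191 at 0.92 each and Olfr166 at 0.88. No member was at least 2-fold lower, where 0.466% of all genes were; the lowest were Olfr206 at -0.39, Olfr178 at -0.26 and Olfr196 at -0.15. The members from Olfr164 to Olfr171 had a median of 0.88 with all 7 above 0, and those from Olfr172 to Olfr206 one of 0.20 with 20 of 24 above 0. This pair of arrays shares none with the wild-type pair.

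**Figure D2:**
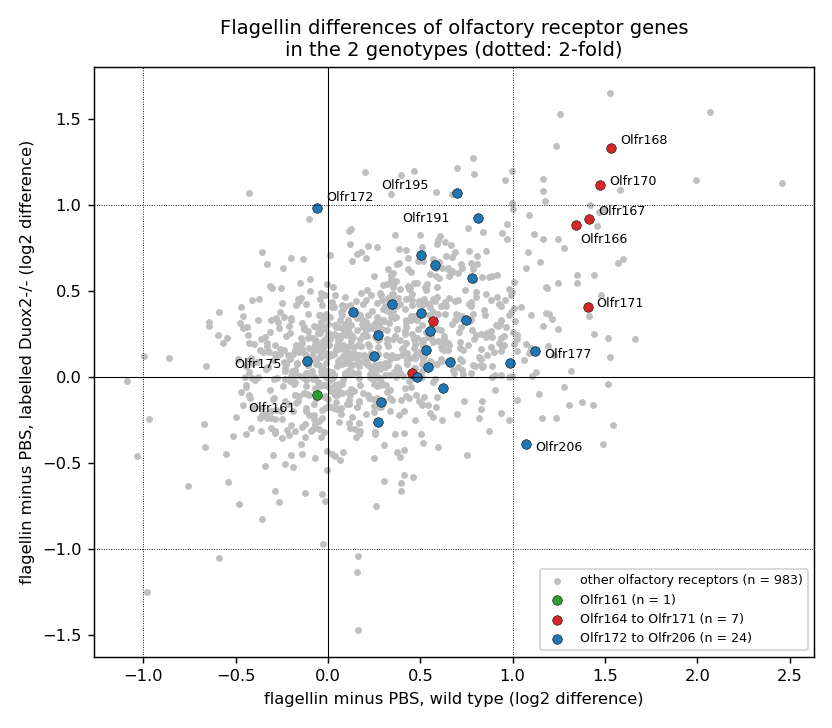
Flagellin minus PBS (log2 difference) in wild type (horizontal axis) and in the arrays labelled Duox2-/- (vertical axis), with members coloured by their group on the chromosome, 983 other olfactory receptor genes in grey and dotted lines at 2-fold. Olfr166, Olfr167, Olfr168 and Olfr170 lie at the upper right, Olfr172 at the upper left of the members and Olfr206 at the lower right.

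Set side by side, the flagellin differences were above 0 in both genotypes for 25 of 32 members, against 26.6% of all genes, 55.2% of the other olfactory receptors and 39.2% of non-receptor genes of like level. The wild-type difference was the larger for 24 of 32 members. It was so for 52.9% of all genes, 55.3% of the other olfactory receptors and 36.9% of the like-level genes. The median of the wild-type minus the other difference was 0.32 for the members. It was 0.02 over all genes, 0.06 for the other olfactory receptors and -0.10 for the like-level genes. The gap was widest for Olfr206 at 1.46, from 1.07 in wild type against -0.39. Olfr171 had 1.41 against 0.41, and Olfr177 had 1.12 against 0.15. It ran the other way for Olfr172, at -1.04, and for Olfr195, at -0.37. For Olfr168 it was 0.20, and for Olfr191 it was -0.11. With 1 array a group no test of these gaps can be made.

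The PBS arrays show how receptor signals differed with the genotype label when no flagellin was given. Members were mostly higher with that label: the median difference was 0.77 and 30 of 32 were above 0. Above 0 were also 56.3% of all genes, 75.1% of the other olfactory receptors and 83.5% of the like-level genes. At least 2-fold higher were 9 members, against 1.34% of all genes. Olfr166 led with 1.65, followed by Olfr201 at 1.64, Olfr168 at 1.55, Olfr199 at 1.44, Olfr170 at 1.33, Olfr171 at 1.32, Olfr206 at 1.25, Olfr186 at 1.07 and Olfr167 at 1.05. No member was at least 2-fold lower, where 0.226% of all genes were, and the smallest were Olfr175 at -0.07, Olfr202 at -0.06 and Olfr195 at 0.09. This comparison and the wild-type flagellin comparison share the wild-type PBS array, which was low for most members, so their directions are not independent.

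Between the flagellin arrays the members labelled Duox2-/- were higher by a median of 0.42, with 28 of 32 (87.5%) above 0. Above 0 were also 50.6% of all genes and 83.9% of non-receptor genes of like level. The members' share was thus near that of dim genes in general. Olfr168 (1.34), Olfr172 (1.25), Olfr166 (1.19) and Olfr201 (1.07) were at least 2-fold higher, against 0.476% of all genes. None was at least 2-fold lower, where 1.18% of all genes were. The smallest were Olfr206 at -0.21, Olfr181 at -0.20 and Olfr173 at -0.06. After cyclic loess, which removes shifts that depend on brightness, 2 members and not 4 were past 2-fold, and the median was 0.26. Higher with the label Duox2-/- under both treatments were 26 of 32 members, against 39.8% of all genes, 65.0% of the other olfactory receptors and 73.8% of the like-level genes.

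The 4 arrays were ordered alike for most members. The wild-type PBS array was the lowest for 28 of 32, against 29.2% of all genes, and the flagellin array labelled Duox2-/- was the highest for 25, against 35.9%. Both held together for 22 members, against 18.5% of all genes. These orders were also common in similar genes: wild-type PBS was the lowest for 61.5% of the other olfactory receptors and for 48.6% of 3617 non-receptor genes of like level, and both held for 45.7% and 33.5% of them. The flagellin array labelled Duox2-/- was the highest for 63.9% of the like-level genes. The 22 members included all 7 members from Olfr164 to Olfr171 and 15 of the 24 from Olfr172 to Olfr206.

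The shifts have to be read beside those of other genes. The 983 other olfactory receptor genes had medians of 0.23 (wild type) and 0.17 (labelled Duox2-/-) for flagellin, and of 0.38 and 0.29 for the label under PBS and flagellin. The share of them at least 2-fold higher for flagellin was 7.32% (wild type) and 2.34% (labelled Duox2-/-). For the label it was 12.8% under PBS and 3.36% under flagellin. The like-level genes were the 3617 non-receptor genes whose 4-array mean lay between 3.88 and 5.67, the middle 50% of the members' means. Their medians were 0.03, 0.13, 0.24 and 0.35 in the same order. Dim genes in general were thus higher on the arrays labelled Duox2-/-, and under flagellin their median difference, 0.35, was close in size to the members' 0.42. After cyclic loess the like-level medians for the label were 0.005 under PBS and 0.06 under flagellin. The members then had 0.59 and 0.26, and the other olfactory receptors 0.23 and 0.14. Without loess, 0.525%, 0.166%, 0.608% and 0.553% of the like-level genes were at least 2-fold higher in the 4 comparisons. None of these differences between gene sets was tested.

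**Figure D3:**
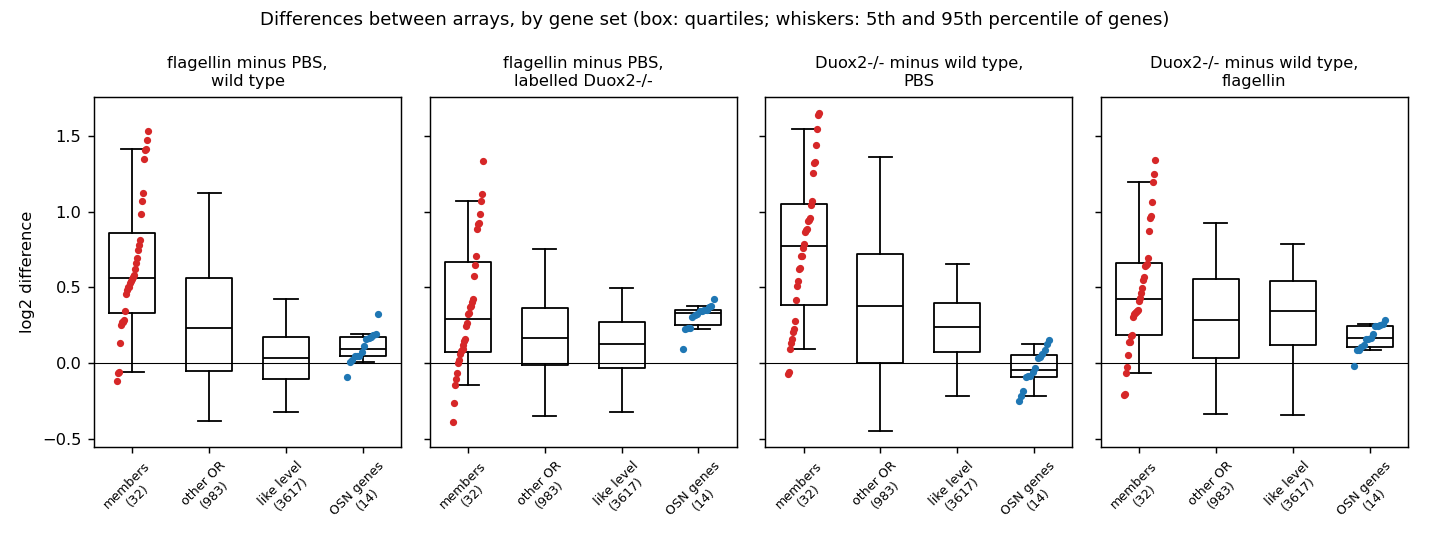
Log2 differences (vertical axis) in the 4 comparisons for the members, the other olfactory receptor genes (other OR), non-receptor genes of like level and 14 genes of mature olfactory sensory neurons (OSN genes), with boxes at the quartiles over genes, whiskers at the percentiles named in the title and points for single members and neuron genes. The members' median was above that of the 3 other sets in each comparison but that of flagellin labelled Duox2-/-, where the neuron genes had 0.33 against 0.29.

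Genes of the neurons that carry the receptors had smaller median differences than the members in 3 of the 4 comparisons and a larger one, 0.33 against 0.29, for flagellin in the arrays labelled Duox2-/-. The list of mature olfactory sensory neurons held 14 genes, all of them measured and bright. Their median was 0.09 for flagellin in wild type, with 13 above 0, and 0.33 in the arrays labelled Duox2-/-, with all 14 above 0. For the label it was -0.04 under PBS and 0.16 under flagellin. None of the 14 was past 2-fold in any of the 4 comparisons. Stoml3 of the sensory cilia was at 12.06, 12.26, 12.19 and 12.54 on the wild-type PBS, wild-type flagellin, PBS labelled Duox2-/- and flagellin labelled Duox2-/- arrays, and the cyclic nucleotide-gated channel gene Cnga2 at 10.82, 10.98, 10.79 and 11.14. Rtp1, which helps receptors reach the cell surface, was at 9.48, 9.65, 9.57 and 9.89. Regulators of receptor expression, 15 genes including Lhx2 and the Ebf family, had medians of 0.08, 0.22, 0.00 and 0.11 in the order of the 4 comparisons above. Immature neurons and progenitors, with 9 of 10 genes measured, had -0.01, 0.08, 0.15 and 0.28.

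Markers of other tissue differed between the same arrays. The 7 skeletal muscle genes were all lowest on the wild-type PBS array, and their median level was 5.00 there, 6.98 on the wild-type flagellin array, 8.26 on the PBS array labelled Duox2-/- and 5.48 on its flagellin array. The median level of 7 neutrophil genes was 5.57, 7.28, 6.36 and 6.73 in that order, and that of 6 squamous epithelium genes 6.57, 7.498, 5.89 and 5.52. All 6 respiratory ciliated cell genes were highest on the wild-type PBS array, and their median level was 8.79, 8.50, 8.44 and 8.17. Of the 9 measured sustentacular and gland genes 8 were lower with the label under PBS, with a median difference of -0.25. Both lists thus ran opposite to the members there. The 2 measured of 3 vomeronasal neuron genes, Gnai2 and Gnao1, had medians between 9.49 and 9.51. Those flat medians join opposite differences: for flagellin labelled Duox2-/- Gnai2 was at -0.31 and Gnao1 at 0.30. Trpc2, the third of that list, was not measured. Muscle genes were high on the PBS array labelled Duox2-/- and low on its flagellin array, where most members were highest. The part of these tissue differences in the members' values was not tested.

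An additive limma model was fitted over all 19938 genes, with 1 term for flagellin and 1 for the genotype label and no interaction. Its error comes from the 1 residual degree of freedom that is the interaction, moderated across genes. That error rests mostly on all genes together, with 9.004 prior degrees of freedom against the 1 of each gene. The p-values, with Benjamini-Hochberg adjustment over all genes, therefore mainly set the size of a shift against an error common to the genes. They do not measure the spread between mice. With flagellin 6 members rose and 0 fell, against 0.261% and 0.0401% of all genes. Olfr168 rose by 1.43 ± 0.14 (SE, adjusted p = 0.00604), Olfr170 by 1.30 ± 0.15 (0.0111), Olfr167 by 1.17 ± 0.16 (0.0178) and Olfr166 by 1.11 ± 0.16 (0.0186). Olfr191, with 0.87 ± 0.14 (0.0372), and Olfr195, with 0.88 ± 0.15 (0.0489), were the other two. Olfr171 had an estimate of 0.91 ± 0.21 (0.179). At an unadjusted p under 0.05 in limma, 19 members were higher and 0 lower, where 4.18% of all genes were higher. After cyclic loess none of the 6 kept an adjusted p of at most 0.05: the lowest was 0.0511, for Olfr168, and over all genes 1 call was left. The estimates of the 6 were then 0.80 to 1.47, and 17 members had an unadjusted p under 0.05. Centring the arrays on their medians ended the calls of Olfr191 (adjusted p = 0.0538) and Olfr195 (0.0717), with estimates of 0.86 and 0.87.

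With the label Duox2-/- 16 members were higher and 0 lower in the same model, against 7.03% and 2.39% of all genes. The largest estimates were those of Olfr168 at 1.44 ± 0.14 (SE, adjusted p = 0.00249), Olfr166 at 1.42 ± 0.16 (0.00364), Olfr201 at 1.35 ± 0.16 (0.00534), Olfr199 at 1.20 ± 0.16 (0.0067) and Olfr170 at 1.15 ± 0.15 (0.00660). The 7 members from Olfr164 to Olfr171 all passed, and so did 9 of the 24 from Olfr172 to Olfr206. The other members past the threshold were Olfr178, Olfr186, Olfr191, Olfr196, Olfr197, Olfr198 and Olfr204, with estimates from 0.57 to 0.86. Members with small estimates included Olfr175 at 0.03, Olfr181 at 0.04 and Olfr202 at 0.06. Calls became fewer over all genes under other scalings. After cyclic loess 2 members kept the call, Olfr166 and Olfr168, among 18 genes in all, and after centring the arrays on their medians 11 did, among 448 genes, where the model as first fitted called 1402. Since the genotype term compares the same 4 arrays, it cannot be told apart from any other difference between the pair labelled Duox2-/- and the wild-type pair.

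**Figure D4:**
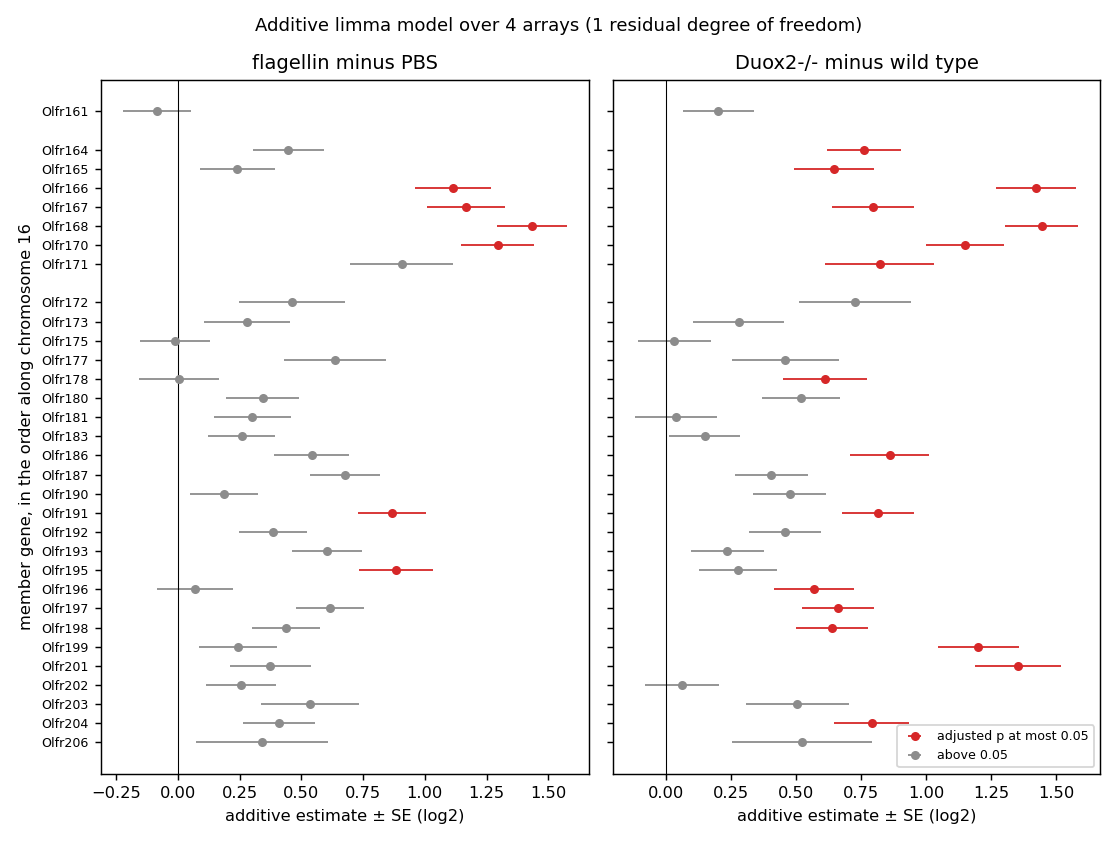
Estimates of the additive limma model (log2, horizontal axes) for flagellin (left) and for the label Duox2-/- (right), with bars of 1 SE, for the 32 members in their order along chromosome 16 (vertical axis). Members past an adjusted p of 0.05 are red: 6 for flagellin and 16 for the label, with Olfr166, Olfr167, Olfr168 and Olfr170 red in both.

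Among all 1015 olfactory receptor genes on the arrays, ordered by the mean flagellin difference of both genotypes, Olfr168 was at place 5, Olfr170 at 8, Olfr167 at 13, Olfr166 at 19 and Olfr171 at 40. Olfr164 and Olfr165 of the same group were at 261 and 458. At the other end Olfr161 was at 857. In the group from Olfr172 to Olfr206 the highest were Olfr195 at 46, Olfr191 at 48 and Olfr187 at 101, and the lowest was Olfr175 at 778.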

How the data were processed

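RNA of 4 arrays, 1 per group, was analysed. Per the submitters' processing notes, the authors used RMA in Affymetrix Expression Console 1.1; the deposited table holds log2 values, from 1.43 to 13.7. No further normalisation was applied. Of 35556 probe sets, 21789 were paired with 1 gene by the platform annotation, 1621 with several and 12146 with none listed. The probe set with the highest 4-array mean stood for each gene, and every member had a single one. Sequences and gene order came from RefSeq on GRCm38.p6, and no source names the build of the probe sets. Protein sequences were not used here.

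Differences between arrays were counted at 2-fold (a log2 of 1) over all genes, with no filter on dim genes and no p-value. The additive model used limma 3.58.1 in R 4.3.3 (lmFit, eBayes; prior degrees of freedom 9.004, prior SD 0.144) across all genes, with Benjamini-Hochberg adjustment at 0.05. It was tested on simulated data for the flagellin term, with independent noise of the prior SD for every gene. Calls were made for 100 of 100 genes with an added log2 of 1 and for 7 of 19738 others. The simulation held no interaction and no shift between arrays, so it checks the fit and lends no support to the calls here. Other work used Python 3.11.15, numpy 2.4.6, pandas 2.3.3 and matplotlib 3.10.9.

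The members and the 9 gene lists, with 75 of 78 memberships matched, were chosen with earlier results of these data known. Members were picked by rule if among the 10 highest 4-array means or the 6 largest and 6 smallest mean flagellin differences. Also picked were the 3 largest and 3 smallest of each comparison, and members past the additive threshold. These were 27 members. Values per array were written out for most of them, with only a range for Olfr175. They were not written out for Olfr177, Olfr180, Olfr181, Olfr186, Olfr197, Olfr198 and Olfr206. The plot of log2 values in order along the chromosome shows every member on each array. Any others named, and members singled out for their range or their gap between genotypes, were chosen after their values were seen. The motifs TAATNA and TATAAA were also added then. Alternatives were 2 filters on dim genes, centring, cyclic loess, the mean of probe sets, members of the main chromosome, a 1.5-fold size and a variance trend.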

Additional observations from a re-analysis of the deposited data

Results flagged for a closer look

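For 6 members the flagellin difference had opposite signs in the 2 genotypes, each shown by 1 array per group and not tested. The wild-type minus the other difference was 1.46 for Olfr206, 0.69 for Olfr173, 0.53 for Olfr178, 0.43 for Olfr196, -0.21 for Olfr175 and -1.04 for Olfr172. For 3 further members the difference between the label Duox2-/- and wild type had opposite signs under PBS and flagellin, also not tested: the PBS minus the flagellin difference was 0.97 for Olfr177, 0.48 for Olfr181 and -0.24 for Olfr202. The opposite value was small for several of these, such as -0.03 for Olfr177 under flagellin and -0.06 for Olfr173 in the arrays labelled Duox2-/-.

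The probe set shared by Olfr169, Olfr170 and Olfr171, which entered no count, was higher after flagellin by 1.77 in wild type and by 1.41 in the arrays labelled Duox2-/-. The other shared probe sets were at 0.83 and -0.08 (Olfr194 and Olfr203) and at 0.62 and 0.12 (Olfr204, Olfr205 and Olfr206).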

How the results depend on the processing

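No member's median or count reversed its direction under the alternatives run. With the 6 members whose highest value reached 6.52, the median flagellin differences were 1.38 (wild type) and 0.90 (labelled Duox2-/-). For the label the medians were 1.19 under PBS and 0.81 under flagellin. Members past 2-fold were 4 for flagellin in wild type, 4 for the label under PBS and 2 under flagellin. In limma 6 were higher with the label, among 298 of 12471 genes. With the 2 members whose mean reached 6.52, these medians were 1.44, 1.11, 1.60 and 1.27, and the members past 2-fold were 2, 1, 2 and 2. Limma then called 2 as higher with flagellin, among 18 of 11372 genes, and 2 with the label, among 187. Both filters keep fewer members, and the first keeps them through the arrays where they are high. The 2 members that pass the second were also below 6.52 on the wild-type PBS array. The medians and counts under either filter are therefore no separate support. Shares of all genes past 2-fold were not taken under the filters or cyclic loess. Cyclic loess gave medians of 0.59 and 0.26 for the label under PBS and flagellin, and 2 members past 2-fold under flagellin. In limma it left 0 members for flagellin (1 of 19938 genes) and 2 higher with the label (18 of 19938). Why these counts moved was not tested. At a size of 1.5-fold 14, 9, 21 and 11 members were higher, against 2.66%, 1.42%, 5.49% and 8.97% of all genes. Centring, the mean of probe sets and the variance trend kept every count within 1.5 times; centring kept 4 of the 6 flagellin calls. All members lie on chromosome 16, so that setting changed nothing. Leaving out an array leaves no residual degree of freedom and was not run. No paired analysis was possible because each group has 1 array. The number of arrays limits the precision.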
